A study of Mus musculus with 8 samples.

Results

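Accessible sites of 5 genes were followed across ATAC-seq peaks of mouse multipotent progenitors: Aff1, Ddx54, Gm15754, Msi2 and Wdfy3. They had been selected from the authors' genotype comparison, for sites with less signal in Ebf1-KO MPP3 cells and sites with more signal in Ebf1-KO MPP4 cells. The columns of that comparison were not used here, so the selection is not checked and no genotype effect is given. A peak was included if its center lay inside one of these genes, within 20 kb before its start or within 10 kb past its end, and no other transcript was closer. That gave 80 of 87642 MPP3 peaks and 69 of 86952 MPP4 peaks.

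The data came from 8 libraries, 2 for each genotype of each cell type, made from 5000 sorted bone marrow cells of C57BL/6 mice and sequenced to a stated depth of 50 M reads per library. WT mice were Ebf1fl/fl Tie2Cre +/+ by the labels, and Ebf1-KO mice were Ebf1fl/fl Tie2Cre +/cre, so both groups carried floxed Ebf1 and only the KO carried Cre. The series description instead names the controls as Ebf1-wt with Tie2Cre. Tie2Cre is active in endothelial and blood-forming cells from early development, and so acts well before the MPP stage. All mice were 8 weeks old except MPP3 Ebf1-KO replicate 2 and both MPP4 WT mice, which were 9 weeks old, so age and genotype cannot be told apart in MPP4 cells. MPP4 WT replicate 2 was male and the other 7 were female. MPP3 cells were sorted as LSK+ CD150- CD48+, and MPP4 cells carried Flt3 in addition. Each table gave 1 level per peak, the log2 counts per M (log2 CPM) averaged over the 4 libraries of both genotypes of a cell type. The levels therefore have no replicate error here, and all comparisons are descriptions without a test. Each level mixes both genotypes. A difference between the cell types therefore cannot be told apart from one present in a single genotype. MPP3 and MPP4 cells were normalized separately, so their levels are set side by side, and ranks were taken within a table. The start of Flt3, the receptor that separates the gates, had a peak at 5.92 log2 CPM in MPP3 and 7.01 in MPP4 cells, and the start of Kit had one at 5.54 and 5.63. Ly6a, which encodes Sca-1 of the LSK gate, had no start-site peak in MPP3 cells and one of 1.15 in MPP4 cells. Of the markers of depleted lineages, Cd3e and Ly6g had no start-site peak, whereas Itgam had one of 2.85 and 3.16. The B cell marker Cd79a had a start-site peak in MPP3 cells (3.04) and none in MPP4 cells.

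EBF1 is a transcription factor that specifies B lymphocytes and can bind closed chromatin, often together with E2A proteins, which bind E-boxes. ATAC-seq reads where the Tn5 transposase can enter DNA, so a peak marks an accessible promoter or a distal element that may act as an enhancer. Aff1 (also AF4) is a scaffold of the super elongation complex, which releases paused RNA polymerase II, and is a partner of KMT2A in leukemic fusions. Msi2, Musashi-2, is an RNA-binding protein that sustains hematopoietic stem cells. Ddx54 is a nucleolar DEAD-box RNA helicase. Wdfy3, also known as Alfy, is a scaffold of selective autophagy. Gm15754 is annotated as a transcribed processed pseudogene.

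The EBF1 consensus was searched as TCCCNNGGG or CCCNNGGGA and the E-box as CAGGTG, whose reverse complement is CACCTG, or as the palindrome CAGCTG, on both strands. The sequences below are those on which the motif results turn, from mm10 (GRCm38) on the plus strand, 5′ to 3′, with EBF1 matches and E-boxes in capitals. The first pair, in an intron of Gm15754 at chr5:118495085-118495152 and chr5:118495246-118495545, holds every EBF1 match of that gene.
Gm15754, first match: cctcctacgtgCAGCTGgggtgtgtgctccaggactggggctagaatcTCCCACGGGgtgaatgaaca
Gm15754, remaining matches: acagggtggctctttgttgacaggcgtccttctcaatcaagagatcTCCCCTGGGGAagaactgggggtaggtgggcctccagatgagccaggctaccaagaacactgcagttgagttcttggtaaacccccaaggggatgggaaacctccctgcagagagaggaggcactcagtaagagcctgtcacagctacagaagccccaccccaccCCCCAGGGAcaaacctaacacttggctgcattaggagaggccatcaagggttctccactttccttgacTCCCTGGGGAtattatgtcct
The next is the core of the strongest distal Msi2 peak, at chr11:88599440-88599548 in an intron, with both motifs side by side.
Msi2: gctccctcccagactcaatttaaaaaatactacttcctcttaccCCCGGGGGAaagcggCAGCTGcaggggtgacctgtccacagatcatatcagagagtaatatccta
The Wdfy3 sequences come from an intronic peak found only in MPP3 cells, chr5:101935991-101936044, and from the start of the gene, chr5:102069297-102069325.
Wdfy3, intron: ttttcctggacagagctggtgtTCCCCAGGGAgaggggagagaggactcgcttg
Wdfy3, start: gggagggtccTCCCGAGGGgaccggcatg
Another EBF1 match lay in a weak Msi2 peak of MPP4 cells, at chr11:88376977-88377029.
Msi2, weak peak: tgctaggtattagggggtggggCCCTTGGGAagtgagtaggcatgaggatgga
Aff1 and Ddx54 held no EBF1 match. For Aff1, the central bases of its strongest distal peak are given first, chr5:103760709-103761008. These central bases hold neither motif, but the whole peak held 2 E-boxes outside them in both cell types. The next is a stretch of another intronic peak with E-boxes, chr5:103726723-103726805.
Aff1, strongest distal peak: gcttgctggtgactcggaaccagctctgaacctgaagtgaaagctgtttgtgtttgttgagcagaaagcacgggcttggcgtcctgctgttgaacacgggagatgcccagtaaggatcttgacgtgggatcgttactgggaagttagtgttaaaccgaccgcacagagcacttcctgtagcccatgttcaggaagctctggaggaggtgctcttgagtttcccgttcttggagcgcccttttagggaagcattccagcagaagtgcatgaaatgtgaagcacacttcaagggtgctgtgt
Aff1, E-boxes: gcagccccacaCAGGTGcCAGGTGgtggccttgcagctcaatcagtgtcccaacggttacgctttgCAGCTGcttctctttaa
For Ddx54, an E-box of its inner start-site peak is given, chr5:120621123-120621150.
Ddx54: ctgtacattcaCACCTGtgtgacccgca
The window at the remaining Gm15754 matches, the wider Msi2 window, the weak Msi2 peak, the Wdfy3 windows, the Aff1 E-boxes and the Ddx54 site were chosen after their values were seen.

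Msi2 and Aff1 carried most of the peaks. Msi2 had 34 peaks in MPP3 and 36 in MPP4 cells, and Aff1 had 28 and 19. Wdfy3 had 10 and 7, Gm15754 had 5 in each, and Ddx54 had 3 and 2. The median gene with a peak had 2. Only 18 of 25618 genes in MPP3 cells and 15 of 25337 in MPP4 cells had more peaks than Msi2, a gene of 379.132 kb (chr11:88339382-88718513, minus strand). Aff1 spans 162.949 kb (chr5:103692374-103855322, plus strand), and 43 genes had more peaks in MPP3 cells but 193 in MPP4 cells. Wdfy3 spans 236.966 kb (chr5:101832956-102069921, minus strand), Ddx54 spans 15.854 kb (chr5:120612739-120628592, plus strand) and Gm15754 spans 16.534 kb (chr5:118486967-118503500, plus strand). Long genes have room for more peaks, and the counts were not corrected for length.

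**Figure D1:**
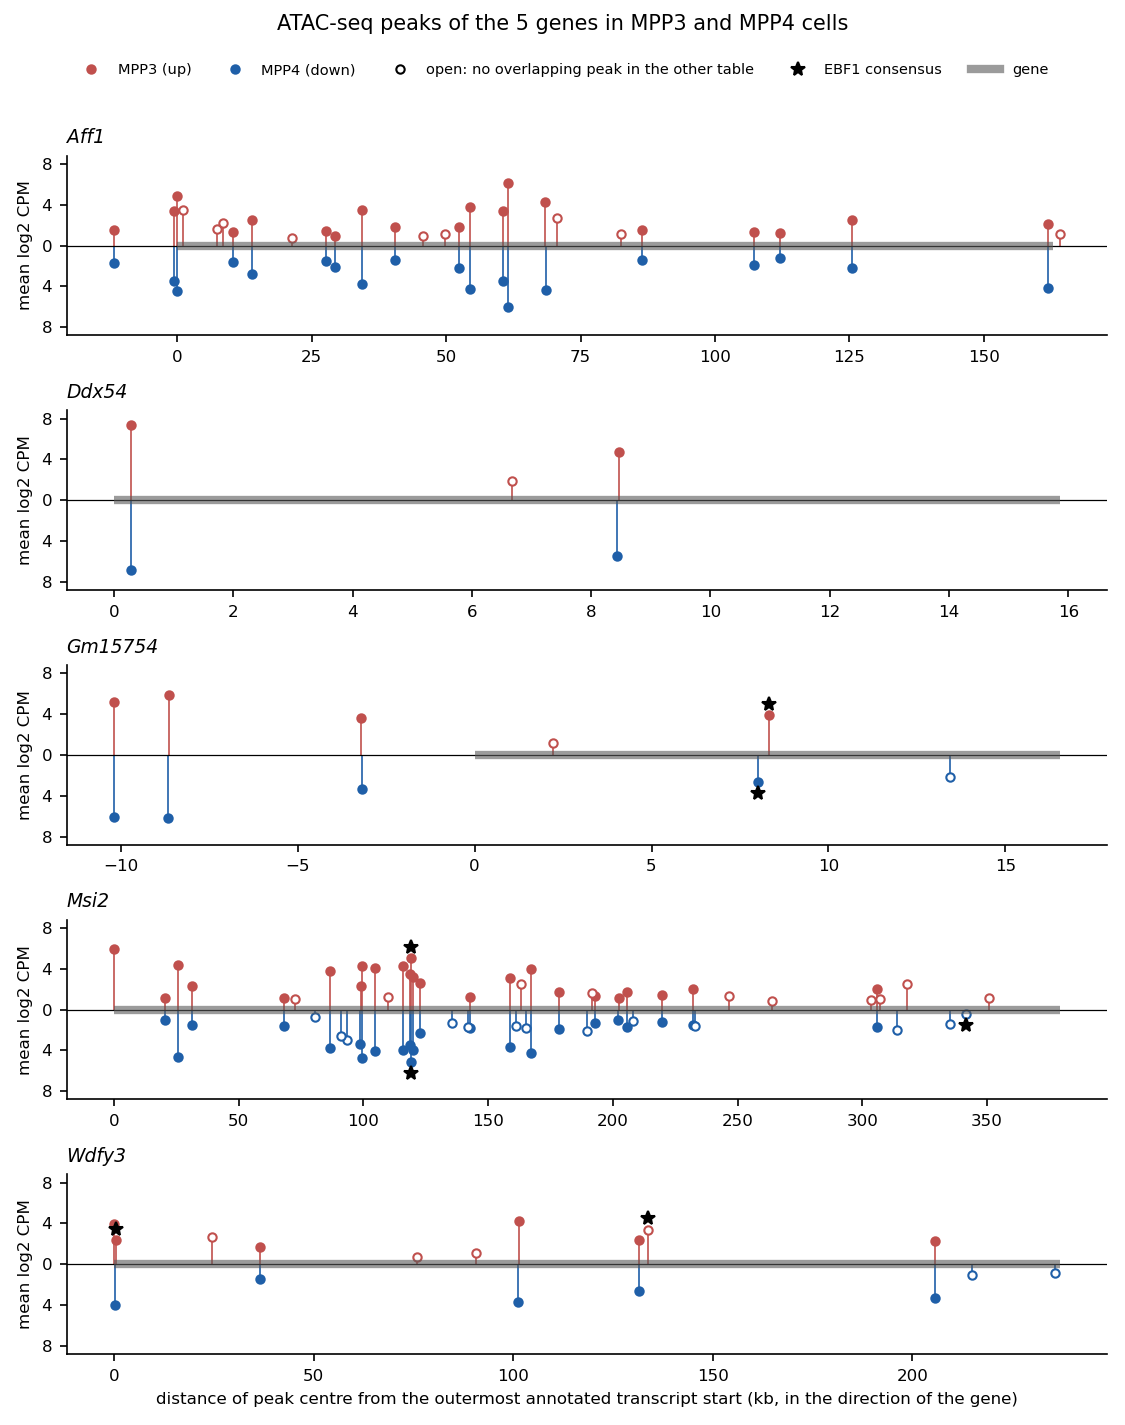
Mean log2 CPM of every peak of the 5 genes (vertical axis, MPP3 upward and MPP4 downward) against the distance of its center from the outermost transcript start in kb. Open circles have no overlapping peak in the other cell type and stars mark peaks with an EBF1 consensus; all 9 open circles at Aff1 are MPP3 peaks, and no star falls on Aff1 or Ddx54.

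Most peaks were intronic and distal, meaning that their center was more than 1 kb from any transcript start. Of the 80 MPP3 peaks 69 were in introns, 7 upstream, 3 in UTR exons and 1 downstream. Of the 69 MPP4 peaks 59 were in introns, 6 upstream and 4 in UTR exons. Distal peaks made up 86.2% in MPP3 cells (69 peaks, 95% Wilson interval 77.0 to 92.1%) against 73.2% of all peaks, and 89.9% in MPP4 cells (62 peaks, lower bound 80.5%) against 72.9%. These intervals cover counting error only, and neighboring peaks of a gene are not independent. The share rests mostly on the long genes Msi2 and Aff1, with 33 of 34 and 24 of 28 MPP3 peaks distal. Wdfy3 had 7 of 10, Gm15754 5 of 5 and Ddx54 0 of 3. The median level over the 5 genes was close to that of the whole table, at 2.22 log2 CPM against 2.24 in MPP3 cells and 2.24 against 2.35 in MPP4 cells, with ranges of 0.73 to 7.35 and 0.42 to 6.86.

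Levels differed among the genes when taken per length, as log2 CPM per kb of peak. Ddx54 had the highest median, 5.03 in MPP3 and 6.33 in MPP4 cells, and Gm15754 followed with 4.72 and 4.53. The medians of Aff1 were 3.96 and 4.08, of Msi2 4.09 and 3.84, and of Wdfy3 4.06 and 4.43, against 4.11 and 4.15 for all peaks. The last 3 genes lay within 0.5 of the table median in both cell types, and their order was not the same in the 2 tables. All Ddx54 peaks ranked above the 66th percentile of their table per kb, and every one of them was a start-site peak. Over all start-site peaks the median per kb was 5.03 in MPP3 and 5.04 in MPP4 cells, so the Ddx54 median was at that level in MPP3 cells and above it in MPP4 cells, where it rests on 2 peaks. No Gm15754 peak was at a start.

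**Figure D2:**
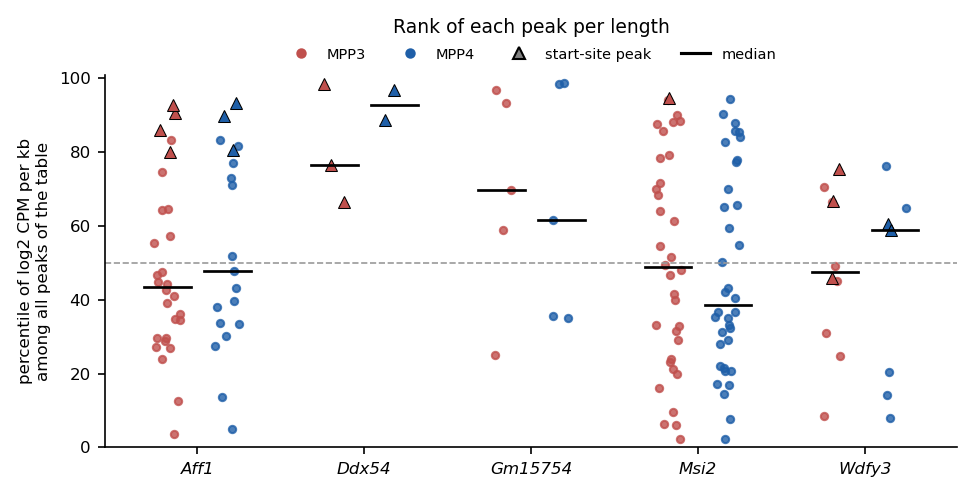
Percentile of each peak's log2 CPM per kb among all peaks of its table (vertical axis), by gene and cell type; triangles are start-site peaks and bars are medians. Ddx54 peaks lay between 66.4 and 98.6 in MPP3 and between 88.8 and 96.8 in MPP4 cells, whereas Msi2 peaks spread from 2.32 to 94.8 and from 2.36 to 94.3.

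Every Aff1 site of MPP4 cells was also one of MPP3 cells, but not the reverse. All 19 MPP4 peaks overlapped an MPP3 peak by at least 1 bp, so 0 of 19 were unshared (interval up to 16.8%), against 23.3% of all MPP4 peaks. Of the 28 MPP3 peaks 9 were unshared (32.1%, interval 17.9 to 50.7%), against 24.3% of all MPP3 peaks, which lies inside that interval. The strongest unshared peak, chr5:103693171-103693473, lay within 1 kb of the outer start of the gene, at 3.48 log2 CPM in MPP3 cells (percentile 75.7). The other 8 lay between 0.77 and 2.68. The outer start itself was accessible in both cell types, at 4.86 in MPP3 (chr5:103692100-103692568) and 4.45 in MPP4 cells. The strongest peak of the gene lay at an inner transcript start 61.5 kb downstream (chr5:103753438-103754407), at 6.16 and 6.00. Its strongest distal peak, chr5:103760515-103761131, had 4.23 in MPP3 and 4.35 in MPP4 cells. The intronic peak with 3 E-boxes, chr5:103726523-103726995, had 3.46 and 3.81. The Aff1 levels were thus within 0.5 of each other at these 4 shared sites.

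One Aff1 site stood apart from that pattern. At the far end of the gene, in a UTR exon, the peak had 2.11 log2 CPM in MPP3 (chr5:103854221-103854515) and 4.17 in MPP4 cells (chr5:103854147-103854566). The difference of 2.06 lay at percentile 99.8 of all 65855 shared pairs. In bulk cells, a larger share of cells with the site accessible and more access per cell cannot be told apart. Because WT and Ebf1-KO libraries are averaged, it is also not known whether both genotypes carry this difference. The peak was 295 bp long in MPP3 and 420 bp in MPP4 cells, and per kb the levels were 3.88 and 5.42. A second Aff1 site differed by 1.19 (0.94 in MPP3 and 2.13 in MPP4 cells), but its peak was 150 bp long in MPP3 and 331 bp in MPP4 cells, and per kb the levels were 3.68 and 3.72. Per length, the first difference was still present and the second was not.

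Msi2 had unshared peaks in both cell types, 10 of 34 in MPP3 (29.4%, interval 16.8 to 46.2%) and 13 of 36 in MPP4 cells (36.1%, 22.5 to 52.4%). Both intervals include the shares over all peaks, 24.3% and 23.3%. The strongest unshared peaks were intronic, chr11:88555392-88555642 at 2.53 in MPP3 and chr11:88625082-88625399 at 3.03 in MPP4 cells. The start of Msi2 had 5.92 in MPP3 cells (chr11:88718115-88718808, 75.4% GC). The overlapping MPP4 peak had 5.65, but its center was closest to the neighboring gene C030037D09Rik, so it is not counted among the 36. The strongest distal peak, chr11:88599243-88599644 with the EBF1 match and E-box printed above, had 5.02 in MPP3 and 5.09 in MPP4 cells. It lay 119 kb from the start, amid 5 peaks that spanned 7.148 kb in MPP3 and 7.044 kb in MPP4 cells. The other 4 peaks of that cluster had 2.65 to 4.29 in MPP3 and 2.28 to 3.93 in MPP4 cells. All 5 were present in both cell types. Another Msi2 site, chr11:88619531-88619752, had 2.27 in MPP3 and 3.35 in MPP4 cells, a difference of 1.08, and per kb the levels were 4.44 and 5.18.

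Gm15754 had its strongest peaks upstream of the annotated gene. The peak 8.64 kb upstream (chr5:118478059-118478593) had 5.90 in MPP3 and 6.22 in MPP4 cells, and the one 10.2 kb upstream (chr5:118476545-118477009) had 5.15 and 6.12. Both ranked above the 92nd percentile in both tables. The remaining upstream peak had 3.63 and 3.316. The unshared peaks, both intronic, had 1.16 in MPP3 (chr5:118489080-118489261) and 2.14 in MPP4 cells (chr5:118500239-118500564).

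The intronic Gm15754 site with the EBF1 matches differed in level and in extent. It had 3.87 log2 CPM in MPP3 (chr5:118494921-118495633) and 2.67 in MPP4 cells (chr5:118494734-118495200), a difference of -1.20 that lay at percentile 2.28 of all shared pairs. Per kb the levels were 4.36 and 3.77. The MPP3 peak was 713 bp long and the MPP4 peak 467 bp, and they shared 280 bp, or 39.3% of the MPP3 and 59.96% of the MPP4 peak. Their centers were 310 bp apart, against a median of 17 bp. Only 0.781% of all shared pairs covered a smaller part of the shorter peak. Of the 5 EBF1 matches in the MPP3 peak, 4 lay in the 433 bp outside the MPP4 peak. The remaining match, TCCCACGGG, was inside both peaks, 38.5 bp from an E-box. Counting this one, 5 of all MPP3 peaks held as many EBF1 matches. One pair of the matches overlaps, so they mark 4 separate places.

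**Figure D3:**
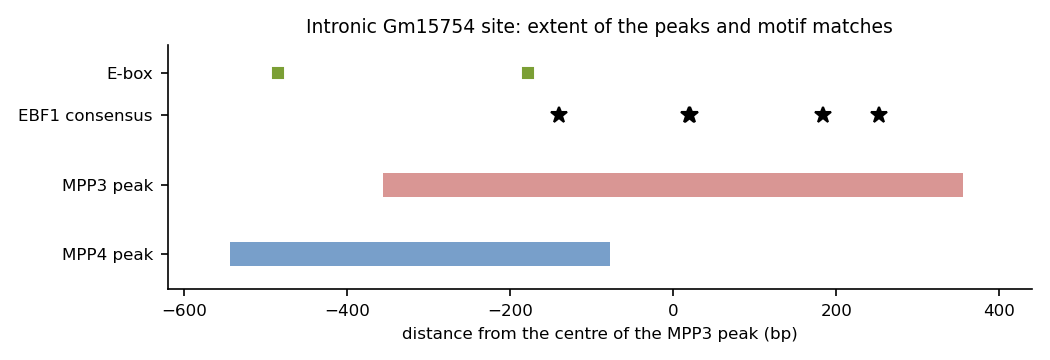
Extent of the MPP3 and MPP4 peaks at the intronic Gm15754 site, with EBF1 matches (stars) and E-boxes (squares), by distance in bp from the center of the MPP3 peak. The MPP4 peak ends 77 bp before that center, and 4 of the 5 EBF1 matches, one pair of which overlap as a single star, lie beyond it.

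Wdfy3 had its EBF1 matches in DNA with a peak in MPP3 cells only. The intronic peak chr5:101935896-101936286 had 3.40 log2 CPM (percentile 74.4) and no MPP4 partner. It was the strongest unshared Wdfy3 peak and held TCCCCAGGGA, a match with both flanking bases. The other match, TCCCGAGGG, lay in a start-site peak (chr5:102069291-102069603, 2.34 in MPP3 cells) that overlapped the MPP4 start-site peak (chr5:102069440-102070180, 4.002), but outside the part covered by the latter. The main start-site peak of MPP3 cells had 3.93. The strongest distal peak, chr5:101968076-101968857, had 4.25 in MPP3 and 3.69 in MPP4 cells, with 782 and 367 bp, and per kb 4.60 and 5.13. The order of the cell types thus changed when length was taken into account. An intronic peak near the far end of the gene (chr5:101864018-101864320) had 2.28 and 3.26. The strongest unshared MPP4 peak had only 1.02.

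All peaks assigned to Ddx54 lay at its starts, while peaks closer to another gene were not counted. The promoter peak, chr5:120612476-120613572, had 7.35 in MPP3 and 6.86 in MPP4 cells, which placed it above 99% of all peaks in both tables. The peak at an inner start, chr5:120620804-120621609 with the E-box printed above, had 4.71 and 5.45. The levels differed in opposite directions between the cell types, lower in MPP4 cells at the promoter and higher at the inner start. These differences, -0.49 and 0.73, lay at percentiles 14.2 and 88.4 of all shared pairs. Differences of this size were thus common, and they were not tested. A further weak MPP3 peak, chr5:120619339-120619488, had 1.86 and no MPP4 partner.

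Shares of sites common to both cell types were near or below those over all peaks. Of the MPP3 peaks 55 of 80 (68.8%, interval 57.9 to 77.8%) overlapped an MPP4 peak, against 75.7% of all MPP3 peaks, and of the MPP4 peaks 53 of 69 (76.8%, 65.6 to 85.2%) against 76.7%. Among peaks of at least 2 log2 CPM the gap was wider, with 37 of 44 MPP3 peaks shared (84.1%, interval 70.6 to 92.1%) against 93.0% and 34 of 38 MPP4 peaks (89.5%, 75.9 to 95.8%) against 93.6%. Unshared peaks were the weaker ones, with medians of 1.18 against 2.53 log2 CPM in MPP3 and 1.58 against 3.26 in MPP4 cells. The same held for all peaks, with 1.21 against 2.68 and 1.20 against 2.82. Among the 54 shared pairs the median difference between MPP4 and MPP3 levels was 0.072, against 0.035 for all pairs. It exceeded 1 in size in 4 pairs (7.41%), against 9.31% of all pairs, and these were the pairs of Aff1, Msi2 and Gm15754 given above. Spearman's rho between the cell types was 0.906 over the 54 pairs and 0.893 over all pairs, across peaks that share libraries and are not independent.

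**Figure D4:**
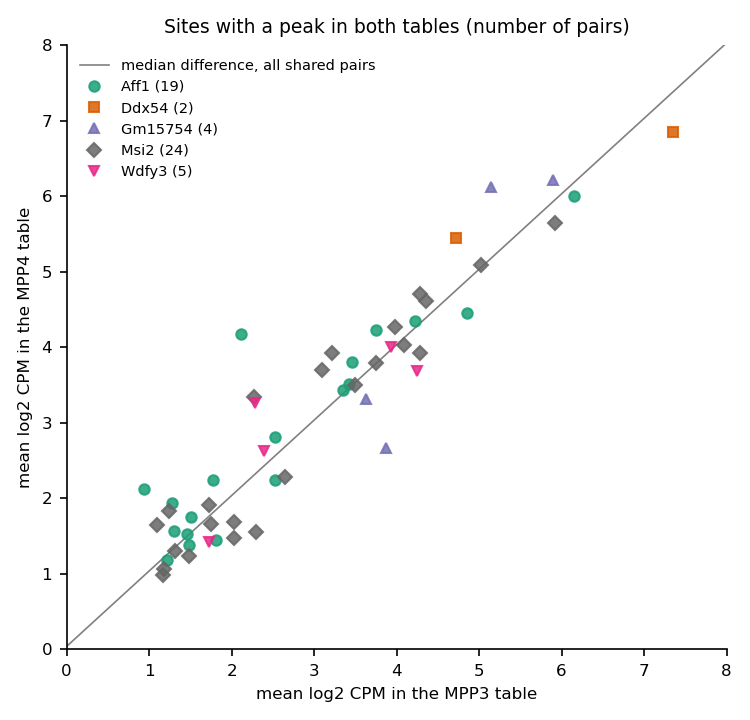
Mean log2 CPM in MPP4 (vertical axis) against MPP3 cells (horizontal axis) for the 54 shared pairs, by gene; the line marks the median difference of all shared pairs, 0.035. The Aff1 point far above the line is the peak in the UTR exon (2.11 and 4.17), and the Gm15754 point farthest below it is the intronic EBF1 site (3.87 and 2.67).

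The EBF1 consensus with at least 1 flanking base was rare in these peaks, and the order against all peaks depended on the definition. It was present in 4 of 80 MPP3 peaks (5.00%, interval 1.96 to 12.2%) against 7.46% of all, and in 3 of 69 MPP4 peaks (4.35%, 1.49 to 12.0%) against 6.49%, both within the counting error. With no flanking base required the shares were 18.8% against 14.6% and 14.5% against 13.4%, and with both required they were 2.50% against 1.14% in MPP3 cells and 0 of 69 peaks against 0.819% in MPP4 cells. Among distal peaks alone, MPP3 cells had 4.35% against 5.74% of all distal peaks, and MPP4 cells had 4.84% against 4.77%. In matches per kb, the MPP3 peaks had 0.31 against 0.26 for all peaks, and the MPP4 peaks 0.13 against 0.22, and Gm15754 supplied 5 of the 8 MPP3 matches. Of these 8 matches 2 lay inside an MPP4 peak, against 67.6% of all 7240 MPP3 matches. Of the 3 MPP4 matches 2 lay inside an MPP3 peak, against 80.6% of all 6106. With so few matches from 3 genes, and with most of the MPP3-only matches in 1 peak, these shares are descriptions of single sites. The genes were also selected in part for sites with less signal in Ebf1-KO MPP3 cells. The paper reports the EBF1 motif in most such sites and detected only a minority of them in WT MPP4 cells. The selection can therefore favor EBF1 matches outside MPP4 peaks, and this was not tested.

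E-boxes were found in a larger share of these peaks than of all peaks, with intervals that include the latter, but only in the forms searched. With any CANNTG the shares were 77.5% against 76.6% in MPP3 and 76.8% against 78.2% in MPP4 cells, so the difference nearly vanished in the former and turned in the latter. The searched forms were present in 39 of 80 MPP3 peaks (48.8%, interval 38.1 to 59.5%) against 38.7% of all, and in 34 of 69 MPP4 peaks (49.3%, 37.8 to 60.8%) against 40.03%. Per kb there were 2.105 against 1.73 and 2.26 against 1.73. Msi2 had 2.43 and 2.65 per kb and Aff1 1.93 and 2.51, whereas Ddx54 had 1.46 and 1.11. An EBF1 match within 50 bp of an E-box was found in 2 peaks of each cell type, the intronic Gm15754 site and the strongest distal Msi2 peak, as against 1.27% and 0.988% of all peaks. Of the other motifs, RUNX (TGTGGT) was found in 31 and 28 peaks, PU.1 (GAGGAAGT) in 4 and 4, and GATA factors (motif AGATAA, also with T as its first base) in 13 and 7. The shares were 38.8% against 30.8% and 40.6% against 33.0% for RUNX, 5.00% against 9.56% and 5.80% against 10.9% for PU.1, and 16.2% against 18.2% and 10.1% against 16.4% for GATA. RefSeq promoters were at hand for Aff1, Ddx54 and Msi2, and none held the EBF1 consensus.

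**Figure D5:**
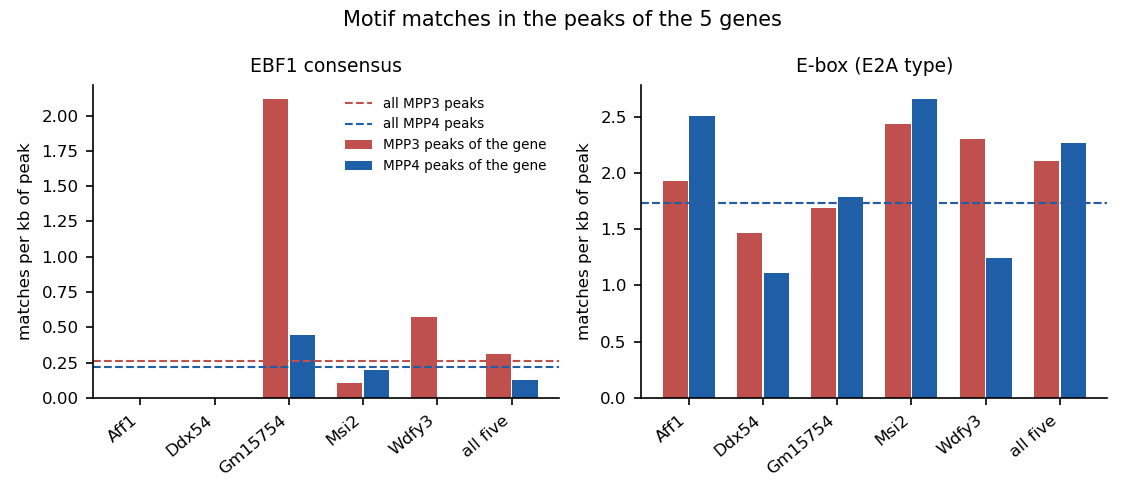
Matches of the EBF1 consensus (left) and the E-box (right) per kb of peak, by gene and cell type; dashed lines are all peaks of the table. Gm15754 in MPP3 cells stands out with 2.11 EBF1 matches per kb, all from 1 peak, while Aff1 and Ddx54 have none.

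Among genes related to Aff1, Wdfy3 and Ddx54, these 3 left out, 7 of 7 of the super elongation complex, 3 of 3 WDFY genes and 11 of 11 nucleolar DEAD-box helicases had a start-site peak in both cell types. Of all 20780 autosomal protein-coding genes 67.5% had one in MPP3 and 67.3% in MPP4 cells. By contrast, Msi1, the paralog of Msi2, had none in MPP3 cells and one of 0.84 log2 CPM (percentile 8.43) in MPP4 cells. The start of Msi2 was at percentile 95.6 there. EBF1 matches were found in peaks of Wdfy2 and Wdfy4 in MPP3 cells and of no WDFY gene in MPP4 cells. For the super elongation complex the numbers were 3 and 1 of 7 genes, and for the helicases 1 and 4 of 11. The share over all genes was not computed, so no direction is read from these small counts.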

How the data were processed

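ATAC-seq was done on sorted MPP3 and MPP4 cells of WT and Ebf1-KO mice. The authors trimmed reads with cutadapt 2.10, mapped them to mm10, called peaks with MACS2 2.2.7.1 on merged replicates, merged WT and KO peaks for each cell type and fitted genotype with edgeR 3.32.0 in R 4.0.3. The log2 CPM values are means over 4 libraries as the authors deposited them. The 4 further columns of each table (log2 fold change, F, p-value and FDR of the authors' genotype comparison) were not used, so no genotype test was run. Depth per library was not analysed here.

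Peaks (autosomes only) were assigned to the closest GENCODE vM21 transcript measuring from the middle of the peak to the nearest of its start, middle and end, with limits of 20 kb before and 10 kb past it. Start-site peaks lay at most 1 kb from a start, by their middle, and shared peaks overlapped by at least 1 bp, taking the largest overlap. Motifs were searched in GRCm38.p6 sequence on both strands, and promoters came from RefSeq (GRCm38.p6, 3 of 5 genes matched). Shares have 95% Wilson intervals. Scripts used Python 3.11.15, pandas 2.3.3 and scipy 1.17.1 and were tested on simulated data.

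Described in full for each gene were the strongest start-site peak, the strongest distal peak, peaks with an EBF1 consensus and the strongest unshared peak. Genes, gene lists and markers were chosen with earlier results of these data known. Some of the markers are not reported here.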

Additional observations from a re-analysis of the deposited data

How the results depend on the processing

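No paired analysis was possible because the tables analysed here give 1 mean level per peak and no value per library; leaving out a replicate was not run for the same reason. Of 28 settings computed, 9 left the value within its tolerance and 19 moved it. The tolerance was 0.1 for medians and 1.5-fold for counts. Levels per kb are in another unit, and a level floor or stricter motif words can only lower a count. The tally is therefore not a measure of how stable the results are. With only peaks of at least 2 log2 CPM, 44 MPP3 and 38 MPP4 peaks were left, of which 84.1% and 89.5% were shared, against 93.0% and 93.6% of all such peaks. The median level was 4.06 in MPP3 and 3.96 in MPP4 cells per kb, 2.53 and 3.26 over shared peaks, and 1.81 and 2.06 without start-site peaks. EBF1 matches with both flanks were in 2 MPP3 and 0 MPP4 peaks (2.50% against 1.14% of all peaks, and 0 against 0.819%), and those with no flank required in 15 and 10 (18.8% against 14.6%, and 14.5% against 13.4%), so the lower share given for 1 flank did not hold in 3 of these 4 settings. With any CANNTG as E-box, 62 and 53 peaks had one (77.5% against 76.6%, and 76.8% against 78.2%), so the larger share of E-boxes shrank in MPP3 and turned in MPP4 cells. Motif pairs within 20 bp were in 1 peak of each cell type. With 500 bp as the limit for start sites, 7 MPP3 peaks qualified. Leaving out weak peaks raised the shared part in both cell types, but less than over all peaks in MPP3 and MPP4 cells, so the gap to all peaks widened.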
